A study of Mus musculus with 48 samples.

Results

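The R377H form of CTCF was compared with the wild-type (WT) transgene by asking which FLAG peaks the 2 lists share. The WT FLAG list held 15392 peaks and the R377H FLAG list 16473, out of 188715 peaks in the 10 FLAG lists of the series, after lines that repeat an interval had been collapsed to 1 peak. A WT peak was called kept when it overlapped an R377H peak by at least 1 bp and lost when it did not, and an R377H peak without a WT peak was called R377H-only. Of the 15392 WT peaks, 11058 were kept (71.8%, 71.1 to 72.5) and 4334 were lost (28.2%). Of the 16473 R377H peaks, 5537 lay outside the WT list (33.6%). Ranges after a share are 95% Wilson intervals, which cover counting error over peaks only.

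All cells were E14Tg2a mouse embryonic stem cells of strain 129/Ola or clones grown from them, and both groups carried an auxin degron on endogenous CTCF. Both were given 500 µM indole-3-acetic acid (IAA) to degrade the endogenous protein and 1 µg/ml doxycycline to switch on a stable Ctcf transgene, for 2 days; the transgene was WT in one line and R377H in the other. ChIPmentation, in which the immunoprecipitated chromatin is cut and tagged by a transposase, was done on FLAG beads for the transgene protein, with an SMC3 antibody for cohesin in both lines, and with a CTCF antibody in WT cells, untreated or given IAA and doxycycline ("treated" below). Each list pools 2 replicates, so there is 1 list per condition, no spread between replicates and no test, and nothing in the labels says whether the replicates were separate cultures. Each genotype is 1 line, the CTCF left after IAA was not measured, and the share of sites that a repeat of the WT transgene would lose is not known. Read depth is unknown, and the depth of a library bears on how many peaks are called.

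CTCF binds DNA through an array of zinc fingers, each of which reads a few bases of a long recognition sequence, and it stops cohesin, the ring complex of which SMC3 is a core subunit, as that complex extrudes chromatin loops. Sites where both sit mark the borders of many chromosomal domains and the anchors of loops. In embryonic stem cells CTCF is also known for its part at imprinted loci, at the clustered protocadherin promoters and in the Hox clusters.

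Promoter windows give the DNA at the strongest sites of each class among those that overlap such a window. The lost and R377H-only sites shown are not the strongest of their class over all positions. The Vrk1 peak, for example, was at percentile 66.9 of the R377H list. The 250 bases before the start site are shown for the leading kept promoters, Ephb1 (an ephrin receptor) and the lncRNA gene Gm52265, for the leading lost ones, Adamts17 (a secreted metalloprotease) and the lncRNA gene Gm13652, and for the leading R377H-only promoter, Vrk1 (a nuclear kinase). Each is written 5′ to 3′ on the gene's strand, from RefSeq with coordinates on GRCm38.p6, and capitals mark matches to the 12-base CTCF core consensus with at most 1 mismatch on either strand.
Ephb1, kept, chr9:102354694-102354943, minus strand: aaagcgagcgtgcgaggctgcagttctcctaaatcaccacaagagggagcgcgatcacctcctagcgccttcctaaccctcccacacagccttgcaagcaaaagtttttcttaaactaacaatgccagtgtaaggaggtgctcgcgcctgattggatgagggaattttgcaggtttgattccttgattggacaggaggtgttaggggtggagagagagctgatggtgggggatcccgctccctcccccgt
Gm52265, kept, chr16:5306665-5306914, minus strand: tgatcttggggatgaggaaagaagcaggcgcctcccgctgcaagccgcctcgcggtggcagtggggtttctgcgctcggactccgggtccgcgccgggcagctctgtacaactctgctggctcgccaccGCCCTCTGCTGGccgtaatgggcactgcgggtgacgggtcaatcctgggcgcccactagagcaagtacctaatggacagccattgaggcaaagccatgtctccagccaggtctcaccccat
Adamts17, lost, chr7:66839485-66839734, plus strand: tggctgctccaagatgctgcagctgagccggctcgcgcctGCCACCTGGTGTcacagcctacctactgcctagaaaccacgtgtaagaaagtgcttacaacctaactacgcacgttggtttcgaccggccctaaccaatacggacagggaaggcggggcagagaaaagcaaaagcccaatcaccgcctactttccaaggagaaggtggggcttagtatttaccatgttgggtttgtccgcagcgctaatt
Gm13652, lost, chr2:75137976-75138225, minus strand: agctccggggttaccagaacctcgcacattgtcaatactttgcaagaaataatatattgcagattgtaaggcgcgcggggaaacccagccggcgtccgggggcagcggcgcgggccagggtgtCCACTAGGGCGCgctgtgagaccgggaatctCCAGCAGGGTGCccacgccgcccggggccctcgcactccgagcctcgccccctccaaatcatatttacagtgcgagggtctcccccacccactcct
Vrk1, R377H-only, chr12:106025557-106025806, plus strand: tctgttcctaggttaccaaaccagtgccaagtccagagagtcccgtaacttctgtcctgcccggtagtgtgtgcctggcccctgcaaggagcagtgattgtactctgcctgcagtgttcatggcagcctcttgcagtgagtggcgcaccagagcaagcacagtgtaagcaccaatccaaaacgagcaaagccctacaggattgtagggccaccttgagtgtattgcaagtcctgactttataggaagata
Gm52265 holds a match without a mismatch, Adamts17 holds 1 match and Gm13652 holds 2 matches, each with 1 mismatch, and neither Ephb1 nor Vrk1 holds one in its 300-base window. The search covered every 300-base window, from 250 bases before to 50 after the start of 32851 RefSeq genes. Of all windows, 1421 (4.33%, 4.11 to 4.55) held a match. The share was 46.9% (42.8 to 51.0) of the 567 windows at a kept peak, 37.8% (30.7 to 45.4) of the 164 at a lost peak and 15.9% (7.93 to 29.4) of the 44 at an R377H-only peak. Matches without a mismatch stood in 15.5% of the windows at kept peaks, in 9.76% of those at lost peaks and in 0 of the 44 at R377H-only peaks. The intervals of kept and lost windows overlap, and that of R377H-only windows lies below both. Windows are counted per gene, so 1 peak or match can count in more than 1 window, and the intervals do not allow for this. A match need not lie within the peak. It describes letters in a window and is not a binding site.

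In the WT list the Ephb1 peak had a value of 16.9 and the Gm52265 peak 15.6, and both were kept with R377H values of 20.1 and 15.7. The Adamts17 peak stood at 6.14 and the Gm13652 peak at 5.51 in WT, and neither had an R377H peak. The Vrk1 peak stood at 5.25 in R377H. The value is the score that the authors' peak caller gave each peak. A peak's percentile is its rank among all peaks of its list, from weakest to strongest. The list medians were 3.66 in WT and 4.05 in R377H, and whether the 2 scales match is not known. Where values of both lists are given for a site, each is to be read within its own list. Such a pair does not measure a change in binding.

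Peaks did not spread over the chromosomes in the same way in the 2 lines. Chromosome 11 held 2429 R377H FLAG peaks (14.7%, 14.2 to 15.3, of that list) against 1094 WT peaks (7.11%, 6.71 to 7.52), a ratio of 2.22, whereas the other chromosomes lay between 0.747 on chromosome 18 and 1.31 on chromosome 17. SMC3 peaks differed in the same direction: chromosome 11 held 16.0% of the R377H SMC3 list and 4.81% of the WT SMC3 list. Among the other 8 mutants the chromosome 11 share of FLAG peaks ran from 5.11% in H455R to 11.7% in K365T. The ratio of R377H to WT FLAG peaks was between 1.81 and 3.37 in every 10-Mb bin of chromosome 11.

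A second stretch stood apart through its low number of WT peaks. Chromosome 17 from 70 Mb to its end held 69 WT FLAG peaks (0.448%, the lowest share of the 10 FLAG lists), 208 R377H peaks (1.26%) and between 0.908% and 2.81% of the peaks of the other 8 mutants. Between 80 and 90 Mb there were 36 WT and 131 R377H FLAG peaks, and 45 WT and 773 R377H SMC3 peaks. Both stretches together are called the 2 regions below. Among the 227 bins of 10 Mb with 20 or more WT FLAG peaks, the 14 in the 2 regions had FLAG ratios of 1.81 to 3.64, and the 213 others had ratios of 0.344 to 1.55. The lowest ratios were on chromosome 18 (21 R377H and 61 WT peaks from 10 to 20 Mb) and chromosome 12 (17 and 42 from 30 to 40 Mb). DNA copy number and input chromatin were not analysed, so the part that either has in these counts was not tested. Without the 2 regions 70.5% (69.7 to 71.2) of WT peaks were kept and 28.3% (27.5 to 29.0) of R377H peaks lay outside the WT list.

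**Figure D1:**
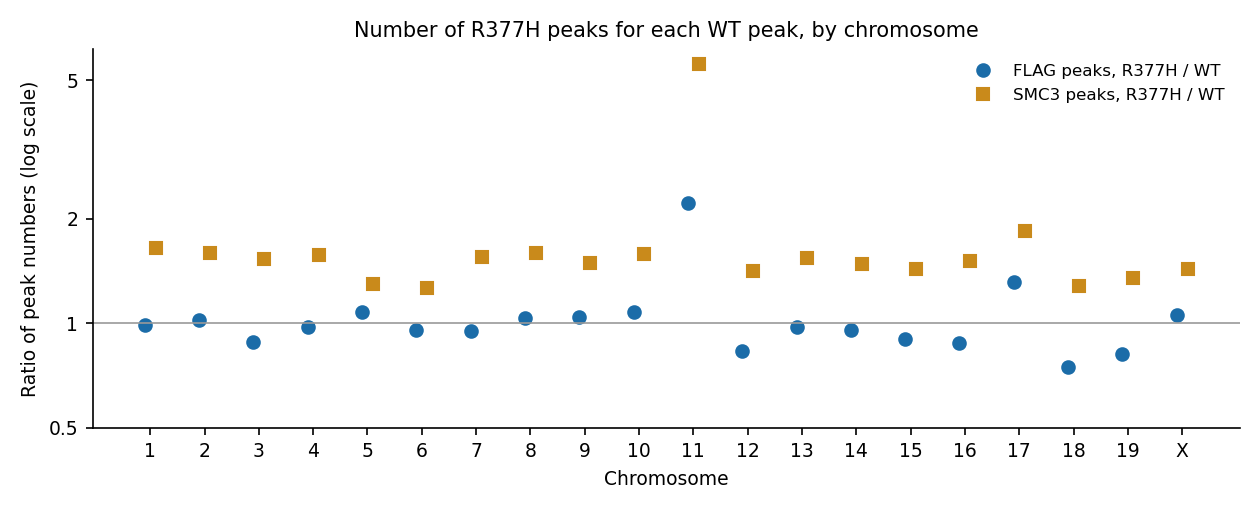
Number of R377H peaks divided by the number of WT peaks on each chromosome (log scale), for the FLAG lists (circles) and the SMC3 lists (squares); each point is 1 pair of pooled lists. Chromosome 11 stands above the rest in both, at 2.22 for FLAG.

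**Figure D2:**
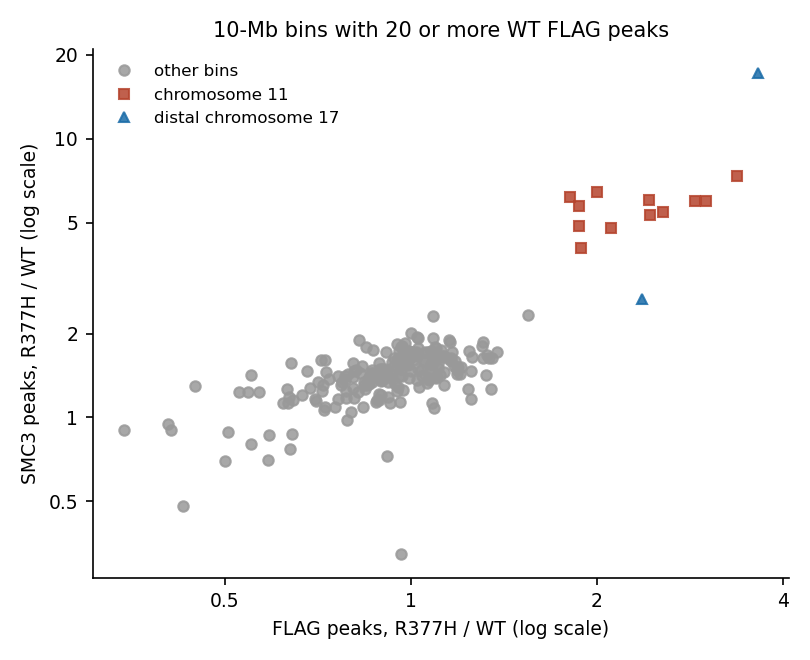
Ratio of R377H to WT peak numbers for FLAG (x axis) and SMC3 (y axis), both on log scales, in the 227 bins of 10 Mb with 20 or more WT FLAG peaks. The 12 counted bins of chromosome 11 and the 2 of distal chromosome 17 (squares and triangles) lie at FLAG ratios of 1.81 or more, above the 213 other bins.

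Kept sites tended to have higher WT peak values than lost sites, though the values of the 2 classes overlapped. The median WT value was 4.17 at kept and 2.89 at lost sites, a difference of 1.28 (1.22 to 1.33). In the weakest decile (10%) of WT peaks 41.5% (39.1 to 44.0) were kept, in the fifth decile 68.5% (66.1 to 70.8) and in the strongest decile 98.7%, which left 20 of 1540 strongest peaks lost. The rise held outside the 2 regions, from 38.9% to 98.7%. Width followed the same order: kept peaks had a median width of 297 bp and lost peaks 158 bp, and the kept share went from 38.5% of WT peaks of 96 to 147 bp to 96.9% of those of 388 bp or more. Of the WT peaks in which the caller marked several summits, 83.1% (81.6 to 84.5) were kept.

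R377H-only peaks were weak and narrow within their own list. Their median value was 3.12, against 5.09 for R377H peaks shared with WT, and their median width was 159 bp, against 366 bp. They made up 70.4% of the second decile of R377H peaks (63.3% outside the 2 regions) and 0.243% of the strongest decile. Those last were 4 of 1648 peaks, and outside the 2 regions the strongest decile held 0 of 1328. Most lay far from a WT peak: 15.5% had one within 500 bp and 41.7% within 10 kb (17.7% and 43.6% outside the 2 regions). Lost WT peaks were further still from R377H peaks, with 2.91% within 500 bp and 21.4% within 10 kb.

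**Figure D3:**
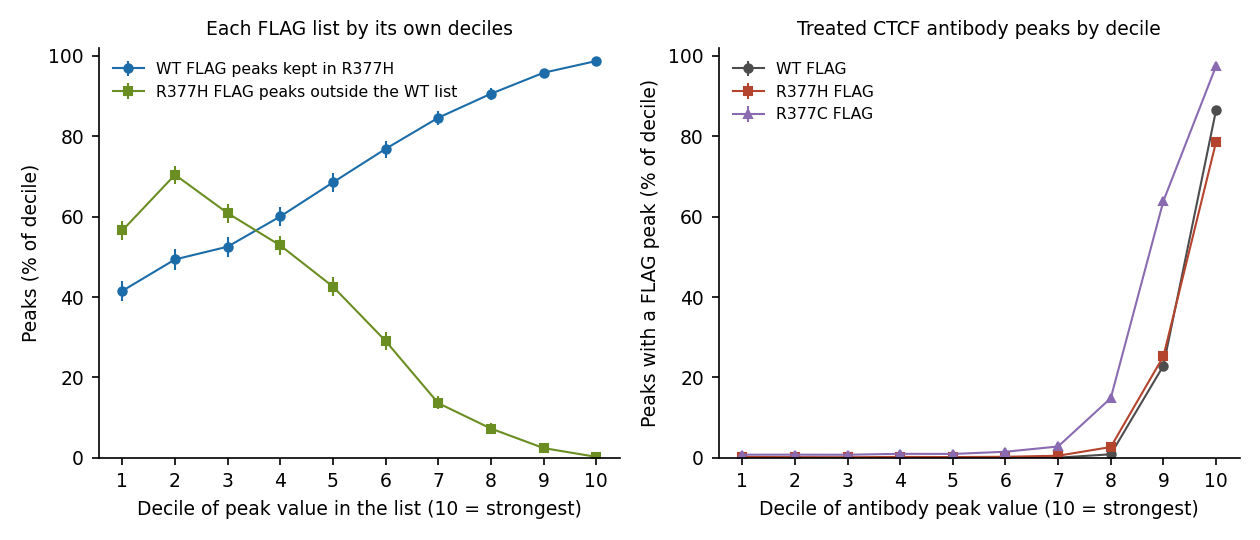
Left, share of WT FLAG peaks kept in R377H by decile of WT peak value, and share of R377H FLAG peaks outside the WT list by decile of R377H value; right, share of treated CTCF antibody peaks that hold a WT, R377H or R377C FLAG peak, by decile of antibody peak value. Points are shares of pooled lists, bars are 95% Wilson intervals; kept shares run from 41.5% to 98.7%.

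The strongest kept sites were large in both lists. Cyria, an inhibitor of RAC1 signalling, had the highest WT value: the peak (mm10, chromosome 12, 12322808 to 12324023, within the gene span) stood at 22.7 in WT and 28.1 in R377H. The peak 0.879 kb from Id2, an inhibitor of basic helix-loop-helix factors, stood at 19.6 in WT and 15.4 in R377H. The sites nearest to Setd4 (129 kb away) and Dmrt3, a sex-determination family factor, stood at 18.8 and 18.3 in WT and at 23.2 and 23.3 in R377H. That near Cemip2 stood at 18.4 and 14.6. All of these 5 held a treated CTCF antibody peak in WT cells, SMC3 peaks in both lines, and FLAG peaks in 7 or all 8 other mutants.

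Values at kept sites were related but not fixed between the lists. Spearman's rho between WT and R377H values was 0.576 over 11058 sites (0.583 without the 2 regions), as a description over sites that share their libraries. The R377H peak was the wider one at 69.8% of kept sites, with medians of 371 bp against 297 bp, and the 2 centres lay within 100 bp of each other at 84.0% of sites. The percentile was higher in R377H by over 25 points at 2003 sites and lower by over 25 points at 1410. Outside the 2 regions these counts were 1641 and 1364 of 10027 sites; inside them, 362 and 46 of 1031. On chromosome 11 the median percentile of kept sites was 54.7 in WT and 77.5 in R377H, against 61.8 and 64.9 on the other chromosomes.

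The sites that moved up most were within Phf12, a chromatin regulator (2.15 in WT, 13.7 in R377H), near Scarb1, the receptor for high-density lipoprotein (2.38 and 20.02), near the cytokine gene Il17b (2.06 and 9.06), and within Bptf, a remodelling subunit (2.28 and 10.3). Phf12 and Bptf lie on chromosome 11. The sites that moved down most were within the recombination gene Rad51b (6.53 in WT, 2.36 in R377H), and nearest to Hs6st1, a heparan sulfate sulfotransferase 228 kb away (6.38 and 2.45), Tpra1 (6.84 and 2.70) and Znrf2, a ubiquitin ligase (5.44 and 2.00). All 8 of these sites held SMC3 peaks in both lines.

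Lost sites fell into a larger set at CTCF antibody peaks and a smaller set away from them. Of the 4334 lost peaks, 3062 (70.7%, 69.3 to 72.0) overlapped a treated CTCF antibody peak, against 99.1% (98.9 to 99.3) of kept peaks. Of the 14023 WT peaks at a treated antibody peak, 78.2% (77.5 to 78.8) were kept, and of the 1348 outside both antibody lists, 93 were kept (6.90%, 5.67 to 8.38). Lost peaks at an antibody peak had a median WT value of 3.08 and 80.3% of them held a WT SMC3 peak, whereas the 1255 outside both antibody lists had a median of 2.55 and a WT SMC3 peak at 10.3%.

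The strongest lost site stood nearest to Smyd2, a lysine methyltransferase (mm10, chromosome 1, 189973075 to 189973393, 50.6 kb from the gene). Its WT value of 10.8 was at percentile 98.9, 6 of the other 8 mutants had a FLAG peak there, and the nearest R377H peak was 67975 bp away. Next came the sites nearest to Thbs2, a matrix glycoprotein gene 119 kb away (9.23), Adra1b, an adrenergic receptor (8.92), and Greb1l (8.37), followed by Tmem132c (7.62, 508 kb away), Dtx4 (7.54), Gm36722 (7.33) and the mesoderm factor T, brachyury (7.30, 26.3 kb away). All of these 8 sites held SMC3 peaks in WT and in R377H cells and an R377C FLAG peak. At the Tmem132c site an R377H peak lay 164 bp away, so a match within 500 bp counts it as shared.

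Outside both antibody lists the strongest lost peaks were near Tns1, a focal adhesion gene (7.30 in WT), Psat1, of serine synthesis (4.97, 252 kb away), Bambi, a pseudoreceptor of TGF-beta signalling (4.93, 166 kb away), and Cdh12, a cadherin (4.92). They were 96 to 220 bp wide, none held an SMC3 peak in either line, and at most 1 other mutant had a FLAG peak there.

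Over all chromosomes R377H-only peaks were divided in a similar ratio. A treated CTCF antibody peak was found at 3960 of 5537 (71.5%, 70.3 to 72.7), against 89.8% of all R377H peaks. Outside the 2 regions the ratios differed: 79.5% (78.2 to 80.8) of R377H-only peaks had one, against 70.6% (69.2 to 71.9) of lost peaks. On chromosome 11, which held 1480 of the 5537 (26.7%, 25.6 to 27.9), the share was 52.1% (49.5 to 54.6). Of the 1501 R377H-only peaks outside both antibody lists, 44.4% lay on chromosome 11, against 2.71% of the 1255 lost peaks of that kind.

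The strongest R377H-only sites were mostly on distal chromosome 17, where WT FLAG and WT SMC3 peaks were few. The peak within Epas1, a hypoxia-response factor (mm10, chromosome 17, 86832118 to 86833339), had an R377H value of 18.5 at percentile 99.5. Peaks within Rasgrp3, a RAS activator, and the receptor kinase gene Alk stood at 9.86 and 9.76, and those near Eml4, a microtubule gene, and Cyp1b1, a cytochrome P450, at 9.45 and 8.25. At all 5 sites WT cells had no SMC3 peak, R377H cells had one and 7 of the 8 other mutants had FLAG. The Alk site lay 904 bp from a WT FLAG peak. The other 3 of the 8 strongest sites lay elsewhere, among them one near the remodeller gene Chd3 on chromosome 11 (8.97), where both lines had an SMC3 peak.

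Outside the 2 regions, in a selection made after these values were seen, the leading R377H-only sites at CTCF antibody peaks were near Brd7, a bromodomain gene (8.85 in R377H), and within Sh2d4a (8.65), Cadm1, a cell adhesion gene (8.25), and Mmadhc, of cobalamin metabolism (8.05). Las1l, of ribosome biogenesis, was the nearest gene to a peak at 8.05 and Hmx1, a homeobox gene, to one at 7.89. The Las1l site held SMC3 peaks in both lines; the other 5 held none in either. Between 4 and 7 other mutants, R377C among them, had FLAG at each of these 6 sites. Away from both antibody lists the strongest were near Evc2, of Hedgehog signalling (5.83), within Sdk2, an adhesion gene (5.30), and Col23a1, a collagen (5.23), and nearest to A430005L14Rik (5.23, 174 kb away), of which Sdk2 and Col23a1 lie on chromosome 11.

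The treated antibody list, 116973 peaks, also gave a view of how far each transgene covered the CTCF sites of WT cells. It comes from the line in which the WT transgene was switched on. There is no such list for R377H cells, so the reference is not equally distant from the 2 transgenes. In the strongest decile of treated antibody peaks the WT transgene had a FLAG peak at 86.5% (85.8 to 87.1) and R377H at 78.6% (77.8 to 79.3). In the ninth decile the order was the other way, 22.9% (22.2 to 23.7) in WT and 25.3% (24.5 to 26.0) in R377H, and in the eighth decile 0.880% and 2.69%. Outside the 2 regions the strongest decile gave 86.3% in WT and 77.5% in R377H, the eighth 0.867% and 2.10%, and the ninth 22.7% (21.9 to 23.5) and 23.3% (22.5 to 24.1), whose intervals overlap. R377C, which changes the same arginine to another residue, had FLAG at 97.5% of the strongest decile, in a FLAG list of 30462 peaks. Of the WT peaks, 11007 were kept by both R377H and R377C, 2790 by R377C alone and 51 by R377H alone.

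Lost sites held SMC3 less often than kept sites in both lines: 60.0% of lost and 89.6% of kept sites had a WT SMC3 peak, and 47.7% and 90% an R377H one. Where a WT SMC3 peak was present, R377H cells had an SMC3 peak at 95.5% of kept sites (9459 of 9904) and at 75.4% of lost sites (1959 of 2599), a difference of 20.1 percentage points (18.5 to 21.9) that came to 17.8 when averaged over deciles of WT FLAG peak value and to 20.4 outside the 2 regions. These WT SMC3 peaks were weaker at lost sites, with a median percentile of 86.5 against 92.3 at kept sites. The part of SMC3 peak strength in the difference was not tested. Where WT cells had no SMC3 peak, R377H cells had one at 42.7% of kept and 6.17% of lost sites (38.4% and 5.82% outside the 2 regions). Of these 1735 lost sites, 1126 lay outside both CTCF antibody lists, and 1.60% of the 1126 had an R377H SMC3 peak. Among sites with a treated antibody peak the shares were 43.1% of kept (479 of 1112) and 14.45% of lost sites (87 of 602). The R377H SMC3 list was longer, 120444 peaks against 71962, and held 69.0% of the WT SMC3 peaks. One library code in the peak names is shared by the R377H FLAG and SMC3 lists, and the labels do not say what it stands for.

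At R377H-only sites SMC3 was less frequent: 22.3% (21.2 to 23.4) had a WT SMC3 peak and 29.7% (28.6 to 31.0) an R377H one. Outside the 2 regions these shares were 26.8% and 28.4%. An SMC3 peak in R377H cells alone was present at 723 of 5537 (13.1%). Outside the 2 regions this was 9.34% of 3910, against 7.72% with an SMC3 peak in WT cells alone; over all chromosomes the latter share was 5.60%. The 2 shares thus lay closer together once both regions were left out.

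**Figure D4:**
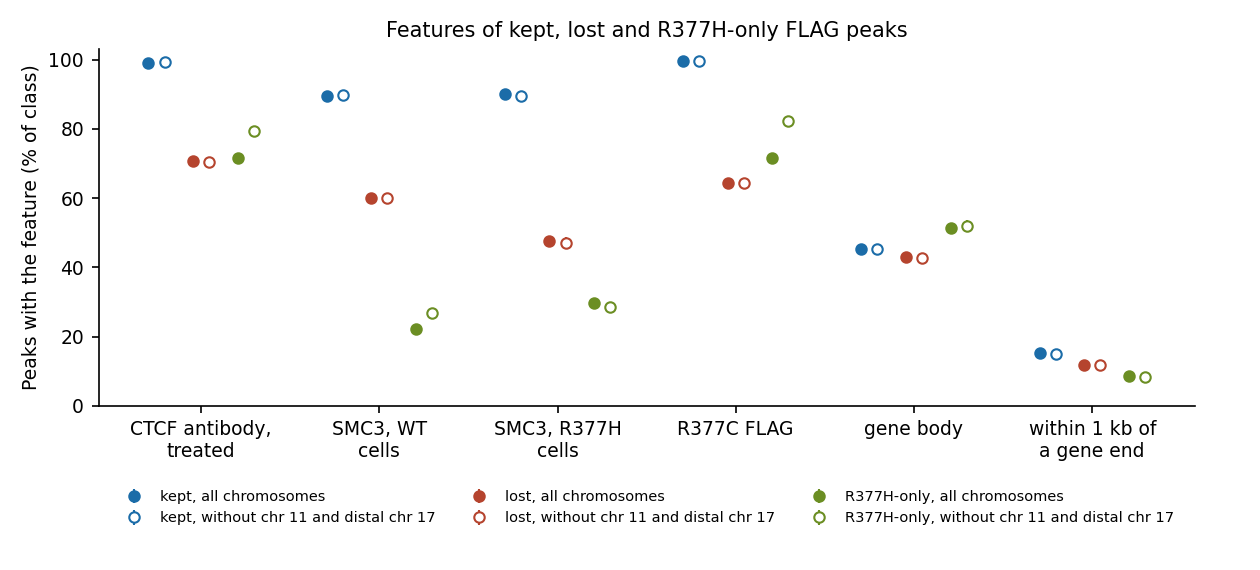
Share of kept, lost and R377H-only FLAG peaks (colours) with a treated CTCF antibody peak, an SMC3 peak in WT or R377H cells, an R377C FLAG peak, or a position in a gene body or within 1 kb of a gene end. Filled circles take all chromosomes, open circles leave out the 2 regions, bars are 95% Wilson intervals, most of them smaller than the symbol; kept peaks stand above 99% for the antibody and for R377C.

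Position relative to genes differed by a few percentage points. Kept peaks lay within 1 kb of either end of a protein-coding or lncRNA gene span in 15.3% (14.6 to 16.0) of cases, lost peaks in 11.8% (10.9 to 12.8) and R377H-only peaks in 8.49% (7.78 to 9.25). The difference between kept and lost was 3.46 percentage points (2.26 to 4.61), and it was 0.224 (-1.25 to 1.63) among WT peaks at treated CTCF antibody peaks, where the interval includes 0. Start sites within 1 kb were found for 7.92% of kept, 6.71% of lost and 3.16% of R377H-only peaks on the chromosomes with a start-site table. Gene bodies, taken as gene spans without peaks within 1 kb of a gene end, held 45.2% of kept and 42.9% of lost peaks. They held 51.5% (50.2 to 52.8) of R377H-only peaks.

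Among promoter sites, the third kept one was at Trappc5, a trafficking subunit, and its divergent partner (15.0 in WT, 15.9 in R377H). The third lost one was at Rasl2-9 (5.17 in WT). After Vrk1 the R377H-only promoters were those of Snhg16, a small nucleolar RNA host gene (4.68), and the lncRNA gene Gm30110 (4.43), both on chromosome 11.

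The FLAG lists of the 8 other mutants were set against each class. Kept sites were widely occupied: 36.4% had FLAG in 7 of the other 8 mutants. Of the lost sites, 738 (17.03%) had no FLAG peak in any other mutant, 675 had one in 5 or more, 25 in 7 and 0 in all 8. Sites without FLAG in any other mutant were away from CTCF antibody peaks in 93.6% of cases, whereas 97.0% of those with 5 or more had a treated antibody peak.

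Each other mutant had FLAG at a larger share of kept than of lost sites. S354F had FLAG at 95.2% of kept and 63.2% (61.8 to 64.7) of lost sites, against 86.2% of all WT peaks, and R377C at 99.5% and 64.4% (62.9 to 65.8), against 89.6%. R448Q had FLAG at 90.9% of kept and 35.3% of lost sites, and R342C at 87.8% and 32.2%, against 75.2% and 72.2% of all WT peaks. For Q418R the shares were 72.6% of kept and 25.1% of lost sites, for R339Q 65.5% and 21.5%, and for K365T 67.0% and 14.1%, against 59.2%, 53.1% and 52.1% of all WT peaks. H455R, with the shortest list, had FLAG at 11.3% of kept and 8.21% of lost sites, against 10.5%. The lists differ in length, from 3855 to 30462 peaks, and the effect of length on these shares was not tested.

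At R377H-only sites R377C, which has the longest list, had the highest share, 71.6% (82.4% outside the 2 regions). Of all R377H peaks, 90.1% (94.8% outside the 2 regions) had R377C FLAG. S354F followed with 40.7% (47.4%), R448Q with 37.6% (41.6%), R339Q with 30.3% (35.0%), R342C with 27.9% (33.2%) and Q418R with 27.2% (30.4%). K365T had FLAG at 12.5% of them (11.9%) and H455R at 1.84% (1.97%). Each of these mutants had a higher share at R377H peaks shared with WT, from 11.5% in H455R to 99.5% in R377C.

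The strongest of the 25 sites lost in R377H with FLAG in 7 other mutants were nearest to Lpar3, a lysophosphatidic acid receptor (6.79 in WT), Ccna1, a cyclin (6.49), Ebf1, a B-cell factor (5.12), Herpud2 (5.06) and Limk1, an actin-regulating kinase (4.89). SMC3 in WT cells and the treated antibody list both had a peak at all 5. R377H cells had an SMC3 peak at Ccna1, Ebf1 and Limk1 and none at Lpar3 and Herpud2. An R377H FLAG peak lay 1365 bp from the Lpar3 site and 62628 bp from the Herpud2 site.

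Of the R377H-only peaks, 1098 (19.8%) were in no other mutant's list and 993 were in 5 or more. Those in no other list were at a treated antibody peak in 24.2% of cases and on chromosome 11 in 56.7% (622 peaks). Outside the 2 regions 11.8% of R377H-only peaks were in no other list and 20.8% in 5 or more. Of those in 5 or more other lists, 96.6% were at a treated antibody peak and 12.7% on chromosome 11. The 5 strongest in no other list were within Dnah2, an axonemal dynein (5.55 in R377H), Sdk2 (5.30), Lcp2, a T-cell adaptor (5.23) and Specc1 (4.83), and nearest to Fancl, a Fanconi anaemia ligase 863 kb away (5.03), and all of them lie on chromosome 11. Of such peaks 462 lay outside the 2 regions. The strongest of them, again chosen after the values were seen, were within Zdhhc14 (4.68) and nearest to Egr2 (4.63, 84.8 kb away), Ptpru (4.63, 240 kb away), Pde3a (4.63, 118 kb away) and Gm10471 (4.42). None of these 5 held a CTCF antibody or SMC3 peak, and they were 105 to 131 bp wide.

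**Figure D5:**
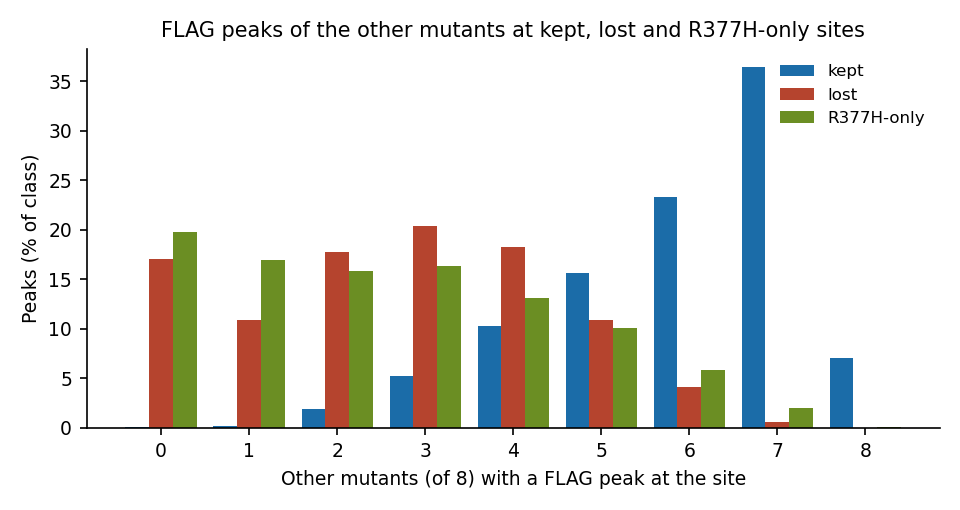
Share of kept, lost and R377H-only sites (y axis, percent of the class) by the number of the other 8 mutants with a FLAG peak there (x axis). Kept sites peak at 7 other mutants (36.4%), and 19.8% of R377H-only sites are at 0 with all chromosomes taken.

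FLAG peaks within 10 kb of listed genes were set against the 71.8% of all WT peaks that were kept. Counts of R377H-only sites are to be read against the 33.6% of all R377H peaks that were R377H-only. Over all lists 76.9% (70.3 to 82.5) of 182 WT sites were kept, and with a window of 50 kb 79.95% (75.98 to 83.41) of 444. Of all WT peaks within 1 kb of a gene end, 76.7% (74.9 to 78.4) were kept. Each list is small, and at 10 kb every list interval but that of the ribosomal protein genes includes 71.8%. The ribosomal interval (76.0 to 95.05) includes the 76.7% of peaks near gene ends. No allowance was made for the number of lists.

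Among pluripotency genes 12 of 15 WT sites were kept. Sox2, a core factor of the stem cell state, kept both of its sites, with highest values of 8.62 in WT and 11.4 in R377H. Single sites were kept at Pou5f1 (1.97 and 2.86), which encodes OCT4, and at Nanog (3.62 and 2.76). Esrrb, an orphan nuclear receptor, lost 1 of 3 sites, the one within the gene with a WT value of 5.27, and had 1 R377H-only site of 3.79. The single sites of Dnmt3l (2.95 in WT), a cofactor of DNA methyltransferases, and Gdf3 (2.06), a growth factor, were lost.

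The clustered protocadherins, adhesion genes whose promoter choice is known to depend on CTCF, had 23 WT sites, of which 18 were kept. Of their 22 R377H sites 4 were R377H-only, the strongest at Pcdhga1 (4.33). A single lost site within the alpha cluster (3.73 in WT) was the only WT site within 10 kb of Pcdha8 to Pcdha12 and Pcdhac1. In the gamma cluster the highest values were 8.13 in WT and 10.9 in R377H. In the Hox clusters, which pattern the body axis, 10 of 14 sites were kept. The strongest kept Hoxd site, near Hoxd9 and Hoxd10, was listed at 6.53 in WT and 19.8 in R377H, while those of the Hoxa cluster stood at 8.00 and 5.84 near Hoxa5 and 7.02 and 4.91 near Hoxa9. Lost Hox sites included that within Hoxa3 (3.20 in WT) and those near Hoxd4 (3.11) and Hoxb4 (2.52), and the R377H-only site lay near Hoxc8 (2.81), 122 bp from a WT peak.

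Of 26 WT sites at imprinted genes 21 were kept, and of 28 R377H sites 7 were R377H-only. Kept sites included those at Slc22a3, a cation transporter gene with 2 sites (highest 10.2 in WT, 13.7 in R377H), and Meg3, a maternally expressed lncRNA (5.84 and 8.61). Cdkn1c, a growth inhibitor, kept 3 sites (highest 5.28 and 6.66). The site within Kcnq1, a potassium channel gene, was lost (3.82 in WT), as were both sites at Slc22a2 (highest 3.25). Peg3, a paternally expressed zinc-finger gene, had no WT site and an R377H-only site of 5.38 at which R377H cells alone had SMC3. The X inactivation centre had no WT site and 2 R377H-only sites, the stronger one within Tsix (3.62).

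Cohesin genes and their regulators kept 11 of 14 sites. Smc3 had 1 kept site (3.599 in WT, 6.98 in R377H). Esco1, a cohesin acetyltransferase, had 2 (highest 5.54 and 13.6) and Ctcfl, a germline paralogue of CTCF, 4 (highest 6.80 and 9.21). Where a gene has several sites, the highest values of the 2 lists need not belong to the same site. The sites of Stag1, a cohesin subunit (3.85 in WT), and of Zfp143, a factor often found with CTCF (3.20), were lost, and an R377H-only site lay within Hdac8, which encodes the SMC3 deacetylase (3.88). Ribosomal protein genes kept 39 of 44 sites (88.6%, 76.0 to 95.05). Of their 52 R377H sites 13 were R377H-only, 5 of them on chromosome 11. The median WT percentile of these 44 sites was 34.6, that is, they were weaker than most WT peaks. Rpl5 stood at 7.10 in WT and 10.4 in R377H, Rps16 at 7.20 and 12.1, and Rpl39 at 5.11 and 13.2; the strongest lost site was near Rpl22l1 (3.50).

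Genes of other fates had few sites each. Neural genes kept 9 of 11 sites, with Lhx2 at 7.36 in WT and 15.5 in R377H. Mesoderm genes kept 6 of 11, endoderm genes 2 of 5, trophoblast genes 7 of 11 and germline genes 5 of 10. Gata4, a factor of heart and endoderm that is in both the mesoderm and the endoderm list, lost both of its sites (highest 4.03). Eomes, a mesendoderm factor, lost 1 of 2 (4.70). Hnf4a, a hepatocyte factor, kept its site at 9.32 in WT and 12.4 in R377H, and Cdx2, the trophectoderm factor, kept 1 of 2 sites. Sites near germline genes that were lost included those of Asz1, of the piRNA pathway (3.41), and Figla, an oocyte factor (3.31), and the meiotic gene Sycp2 kept its site (8.44 and 9.65). The strongest R377H-only sites of the germline, trophoblast and mesoderm lists were within Tex14 on chromosome 11 (3.66), near Tead4 (3.21) and within Mesp1 (2.26), and the strongest lost trophoblast site was near Fgfr2 (4.54). With a window of 50 kb the mesoderm list kept 26 of 34 sites, the endoderm list 13 of 20 and the germline list 21 of 31.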

How the data were processed

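The 14 deposited peak lists used were those of WT and R377H FLAG, WT and R377H SMC3, the CTCF antibody in untreated and treated WT cells, and FLAG in 8 other mutants; SMC3 in the other mutants, FLAG in untreated cells and the IgG control were not used here. Per the submitters' processing notes, the authors used Trim Galore, Bowtie2, MACS2 and deepTools and build mm10. For versions and settings, the sources used here give none. Each peak as deposited carries a score from peak calling, of a kind that the authors did not state. Scores of both lists are printed side by side for single sites, each to be read within its own list. Comparisons of value between the lists over all kept sites used ranks or percentiles. Peak numbers ran to 15821 for 15392 WT peaks and to 16904 for 16473 R377H peaks, so some peaks were removed before deposit by a step that is not stated. Titles give replicates 1 and 2 for each pooled list, whereas the peak names of the FLAG lists carry other replicate numbers.

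FLAG lines with identical intervals (2895 in WT, 6272 in R377H) were collapsed to 1 peak with the highest value. Overlaps of 1 bp or more and Wilson intervals were computed with Python 3.11.15, pandas 2.3.3, numpy 2.4.6 and scipy 1.17.1, and figures with matplotlib 3.10.9; the overlap function was checked against bedtools and on simulated lists. Intervals of differences were built from the Wilson bounds, and that of the difference of medians from order statistics. Genes and start sites came from RefSeq tables of GRCm38.p6, which is mm10 under its assembly name; start sites on chromosome 18 were not used here. Gene spans carry no strand, and exons and introns were not used here. The 2 regions of the report were set apart after the data were seen. No test was run, since each condition has 1 pooled list. Depth is unknown.

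Sites are named by the nearest protein-coding gene, or for gene lists by the nearest member, and by their own gene for promoter windows. The naming rule took by peak value the 6 strongest kept sites, the 8 strongest lost and R377H-only sites at CTCF antibody peaks and the 4 strongest away from them, the 5 strongest of the lost sites that the fewest other mutants lost too, and the 5 strongest R377H-only sites in no other mutant. It also took the 4 sites that moved most in percentile each way, the 3 strongest promoter sites per class, and the strongest lost and R377H-only site per gene list. Some sites that the rule took are not reported here. Other list genes were chosen after their values were seen. The members and lists were chosen with earlier results of these data known. For 1 name of the X inactivation centre list and 1 of the cohesin list no gene matched.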

Additional observations from a re-analysis of the deposited data

How the results depend on the processing

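For 8 results 52 alternatives were computed, of which 21 stayed within the counting interval of the reported value and 31 moved beyond it. The differences between kept and lost peaks kept their sign in every alternative computed for them. The other results are shares, which have no direction to change. No paired analysis was possible because each list pools its 2 replicates, and for the same reason no replicate could be left out. The cause of each move was not tested. The share of WT peaks kept was 53.5% with a reciprocal overlap of 50%, 72.7% with a match within 500 bp, 68.7% with equal numbers of top peaks, 78.2% at treated CTCF antibody peaks, and, added after seeing the data, 70.6% without chromosome 11 and 70.5% without chromosome 11 and chromosome 17 from 70 Mb. The share of R377H peaks outside WT, in the same order, was 50.0%, 28.4%, 32.1%, 26.8%, 28.9% and 28.3%, and 32.7% in the upper 50% of both lists. The difference in median WT value was 1.18 with the reciprocal overlap, 1.09 in the upper 50%, 1.37 with equal numbers and 1.11 at antibody peaks. Lost peaks with an antibody peak made up 81.9% with the reciprocal overlap, 96.8% in the upper 50% and 72.8% with equal numbers. R377H-only peaks with one made up 80.5% with the reciprocal overlap, 66.4% with a match within 500 bp, 96.8% in the upper 50%, 78.6% without chromosome 11 and 79.5% without both regions. The gene-end difference was 4.68 points with the reciprocal overlap and 0.224 at antibody peaks. The SMC3 difference was 11.1 points with the reciprocal overlap, 10.8 in the upper 50%, 17 with equal numbers and 17.8 averaged over deciles of WT value.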
